A study of Mus musculus with 15 samples.

Results

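A set of 10 genes encoding the catalytic core and the variant-specific subunits of Polycomb repressive complex 1 (PRC1) were followed in mouse granule neuron precursors and in medulloblastoma cells. The genes, listed by name with no threshold on their values, were Rnf2, Ring1, Rybp, Yaf2, Kdm2b, Pcgf1, Pcgf3, Pcgf5, Pcgf6 and Bcor. Of the 10, 9 were matched by Ensembl identifier and symbol in the deposited gene count tables of 21889 genes, and all 9 passed the filter on low counts that left 15259 genes for testing. Pcgf1 was not analysed here.

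RNA-seq of poly(A) RNA was performed on 15 libraries, 3 in each of 5 groups. Granule neuron precursors, the dividing cerebellar cells that give rise to granule neurons, were taken at the embryonic age E15.5 (genotype label Math1-GFP) and, from wild-type mice, at postnatal days 1, 7 and 14 (P1, P7 and P14). The Math1 gene is also named Atoh1 and is a marker of these precursors. The tumour group (MB) held cells of medulloblastoma, a cerebellar tumour, labelled Ptch1 heterozygous and without an age. Cells were purified on Percoll, per the labels' protocols. Age and genotype label change together between E15.5 and P1, and genotype, tumour state and unknown age change together between MB and the normal ages. The labels do not say whether the 3 replicates of a group came from separate animals or pools, so the p-values measure the spread between these libraries, which may be technical.

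PRC1 places a single ubiquitin on histone H2A, a mark tied to gene repression. Every PRC1 complex is built around RING1B (encoded by Rnf2) or RING1A (encoded by Ring1), the E3 ligase subunit, paired with a PCGF protein. In canonical PRC1 the PCGF protein is PCGF2 or BMI1 and the complex carries a CBX protein that binds the H3K27 methylation placed by EZH2. In variant PRC1 a RYBP or YAF2 subunit takes the place of the CBX protein, so recruitment does not need that methylation. KDM2B binds unmethylated CpG-rich DNA and brings the PCGF1 form, together with the corepressor BCOR, to CpG islands. PCGF3 and PCGF5 belong to a pair of closely related forms, and PCGF6 belongs to a form that also contains E2F6, MGA, MAX and L3MBTL2.

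Start regions are printed for Kdm2b and Pcgf5 because the results below compare reads upstream and downstream within Kdm2b, whose long and short transcripts start apart, and because Pcgf5 had the largest change. Each runs from 250 bases before to 50 bases after a transcript start, 5′ to 3′ on the gene's strand, from RefSeq on GRCm38.p6, with every CG dinucleotide in capitals. The table held promoters for 7 of the 10 genes, and further start regions of Kdm2b and Pcgf5 that are not printed. Start site use was not measured.
Kdm2b long transcript start: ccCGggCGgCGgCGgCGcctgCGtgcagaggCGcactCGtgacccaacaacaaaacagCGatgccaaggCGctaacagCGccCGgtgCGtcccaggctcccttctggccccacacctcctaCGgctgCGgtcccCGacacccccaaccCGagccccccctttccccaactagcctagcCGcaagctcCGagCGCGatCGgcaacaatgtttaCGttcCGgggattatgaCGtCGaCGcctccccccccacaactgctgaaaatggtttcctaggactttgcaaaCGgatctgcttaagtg
Kdm2b short transcript start: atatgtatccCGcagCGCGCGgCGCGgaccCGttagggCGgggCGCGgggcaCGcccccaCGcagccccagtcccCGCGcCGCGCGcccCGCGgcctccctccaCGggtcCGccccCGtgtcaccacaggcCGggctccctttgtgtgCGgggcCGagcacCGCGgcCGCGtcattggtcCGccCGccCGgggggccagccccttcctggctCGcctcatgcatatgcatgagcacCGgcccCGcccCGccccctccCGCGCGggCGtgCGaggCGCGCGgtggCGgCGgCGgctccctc
Pcgf5 start: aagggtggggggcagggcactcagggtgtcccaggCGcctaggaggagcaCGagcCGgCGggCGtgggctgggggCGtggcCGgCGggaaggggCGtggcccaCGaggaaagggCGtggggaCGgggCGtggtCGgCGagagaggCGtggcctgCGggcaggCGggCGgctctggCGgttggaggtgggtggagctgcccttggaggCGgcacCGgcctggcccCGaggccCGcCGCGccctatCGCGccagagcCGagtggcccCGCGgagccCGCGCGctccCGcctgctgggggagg
The Kdm2b long start region lies at chr5:122989050-122989349 and the short one at chr5:122900318-122900617, both on the minus strand. The Pcgf5 region lies at chr19:36409498-36409797 on the plus strand. The dinucleotide CG, which reads the same on both strands, occurred 28 times in the Kdm2b long start region, and 14.2% of the 32851 promoters of this length held as many. It occurred 47 times in the short start region, with 1.44% of promoters holding as many. An overlapping region that is not printed (chr5:122900301-122900600) held 49, with 1.02% of promoters holding as many. The start of that region lies 5 bases from the short transcript model's start, against 12 for the region printed. Pcgf5 held 35 in the region printed, with 6.95% of promoters holding as many, and 5 in another of its start regions (chr19:36378817-36379116). The median over all promoters was 7. Ring1 held 37, Rnf2 30, Pcgf3 23, Pcgf6 22 and Bcor 21, so each of the 7 genes with a promoter in the table had at least 1 start region above the median.

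Gene counts summed to between 12597472 (E15.5 replicate 2) and 43443132 (E15.5 replicate 3) per library. Expression is given in CPM, the counts scaled to a common library size with the trimmed mean of M-values (TMM), as the values of replicates 1, 2 and 3 in that order or as mean ± SD. Atoh1 was present in all groups, at 124 to 138 CPM in E15.5, 10.9 to 13.1 in P14 and 236 to 322 in MB. Atoh1 is 1 of 8 granule precursor markers. These 8 summed to 2449 to 3409 CPM in E15.5, 3391 to 3707 in P14 and 3637, 6031 and 5958 in MB replicates 1, 2 and 3. Zic1, another of the 8, was at 883 to 1317 CPM in E15.5 and 1825 to 1992 in P14, so the sum does not follow Atoh1. The granule neuron marker Gabra6 was at 0 CPM in E15.5 and 161 to 202 in P14. The summed level of 6 astroglial markers was 122 to 356 CPM at E15.5, 1849 to 4199 over the 3 postnatal ages and 766 to 1309 in MB. The 8 oligodendrocyte-lineage markers summed to 67.9 to 102 CPM at E15.5 and 5394 to 5869 at P14, and P1 replicate 3, at 3540, stood above the other P1 libraries (584 and 924). The 4 choroid plexus markers summed to 294 to 10263 CPM in P1 and 5098 to 8463 in P14. Atoh1 and the glial and choroid plexus markers move with the age differences described here. The part of any of these markers in those differences was not tested. A further difference was technical. Of the Tsnax reads in the transcript table, at most 0.273% appeared in the gene table of 6 libraries (the P7 libraries, E15.5 replicates 1 and 3 and MB replicate 1) and at least 92.4% in that of the other 9, so 2 counting sets exist. P7 lies wholly in one set and P1 and P14 in the other, and P7 cannot be told apart from its set in those comparisons.

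The catalytic pair was dominated by Rnf2 at the RNA level. Rnf2 (ENSMUSG00000026484, mm9 chr1:153316536-153347953, minus strand) was at 147, 175 and 191 CPM in E15.5, 129, 110 and 106 in P1, and 140, 244 and 94.8 in P7. It was at 87.7, 89.5 and 91.2 CPM in P14 and at 210, 122 and 101 in MB. All E15.5 libraries lay above all P1 and P14 libraries, while P7 replicate 2 and MB replicate 1 stood far above the other libraries of their groups. Rnf2 was lower in P14 than in E15.5, by a log2 change of -0.94 ± 0.30 (SE; edgeR quasi-likelihood FDR 0.0172). Of all genes tested, 50.9% were called in that comparison, 26.7% higher and 24.2% lower. The call was lost without P14 replicate 1 (-0.92, FDR 0.0505) and with the counting set as a term (-0.66, FDR 0.122). In bulk RNA, fewer cells of a type and less RNA per cell cannot be told apart. Against E15.5, the P1 value (log2 change -0.58, FDR 0.126) did not pass.

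Ring1 (ENSMUSG00000024325, mm9 chr17:34157737-34161625, minus strand) was at 29.9, 22.4 and 33.0 CPM in E15.5, 16.6, 16.6 and 18.1 in P1, and 27.4, 26.0 and 26.0 in P7. It was at 21.6, 25.3 and 25.0 CPM in P14 and at 18.7, 35.4 and 29.8 in MB. The P1 libraries were the lowest of all 15. Ring1 was lower in P1 than in E15.5 by a log2 change of -0.74 ± 0.22 (SE; edgeR FDR 0.0133), in a comparison where 46.3% of all genes were called. Within the counting set that holds P1, which leaves E15.5 replicate 2 as the lone E15.5 library, the change was -0.39 (FDR 0.159). The rise from P1 to P7, a log2 change of 0.63, had a raw p of 0.0116 and an FDR of 0.126 and was not called.

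Per kb of exon, which allows levels of different genes to be compared, the Rnf2 to Ring1 ratio was 3.32, 5.25 and 3.90 in E15.5, 5.22, 4.45 and 3.92 in P1, and 3.42, 6.31 and 2.45 in P7. It was 2.72, 2.38 and 2.45 in P14 and 7.56, 2.32 and 2.27 in MB. Every library held more Rnf2 than Ring1. P14 lay below E15.5 and P1 without overlap, but the ratio did not differ among the 4 ages beyond the spread (two-sided exact permutation test over 12 libraries, p = 0.145, adjusted p = 0.145 over 3 such tests). P7 replicate 2 decided that call, since without it p was 0.0242 (unadjusted).

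**Figure D1:**
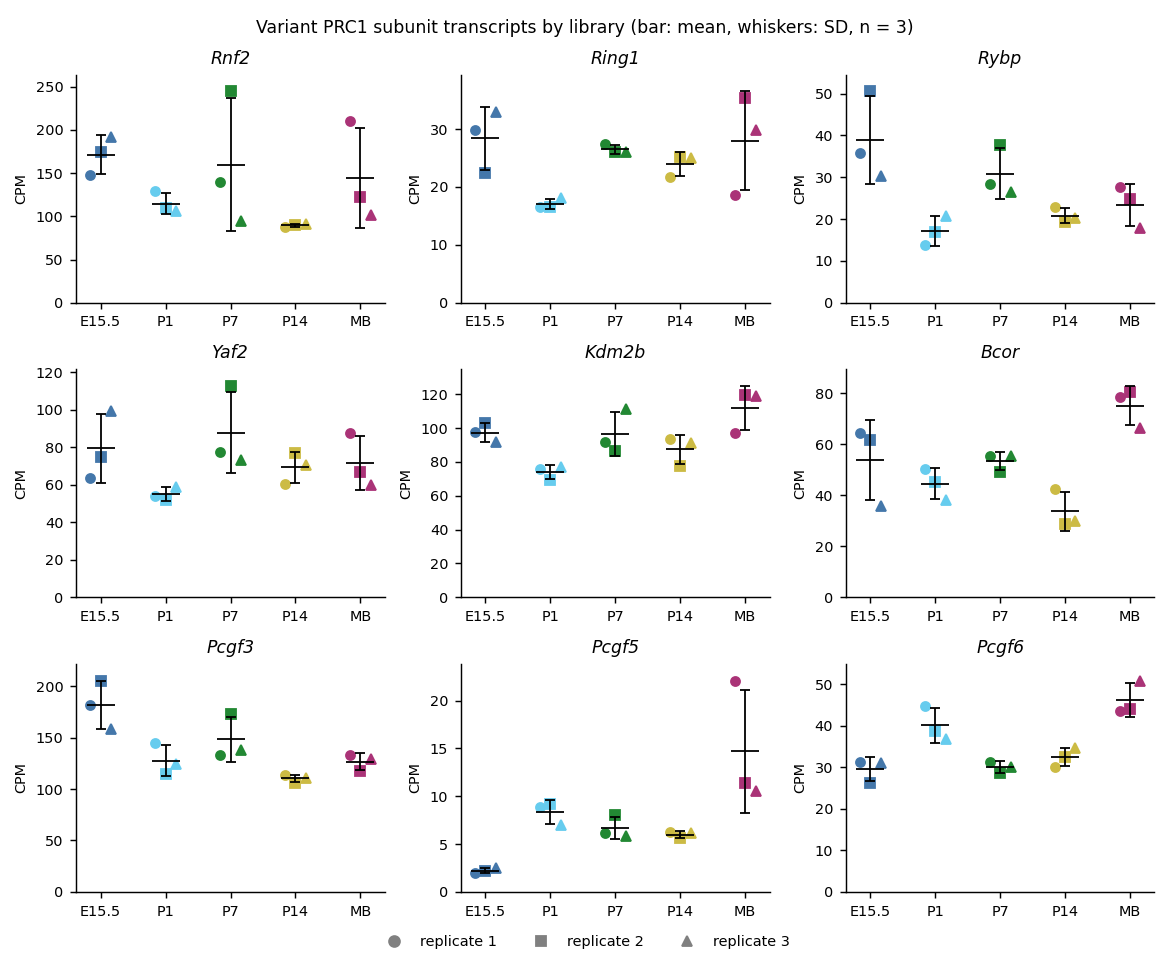
Expression (CPM, y axis from 0) of the 9 measured PRC1 subunit genes in each library of the 5 groups, with the marker shape giving the replicate, a bar for the mean and whiskers for the SD (n = 3). Pcgf5 is at 2.01 to 2.49 CPM in E15.5 and at 10.6 to 22.1 CPM in MB, and Rnf2 has 1 high library in P7 and 1 in MB.

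The 2 adaptors that define variant PRC1 were measured at unequal levels. Rybp (ENSMUSG00000072872, mm9 chr6:100178560-100237435, minus strand) was at 35.9, 50.5 and 30.3 CPM in E15.5, 13.8, 16.9 and 20.8 in P1, and 28.3, 37.8 and 26.4 in P7. It was at 22.9, 19.3 and 20.3 CPM in P14 and at 27.6, 24.8 and 17.8 in MB. E15.5 lay above P1 and above P14 without overlap. Rybp was lower in P1 than in E15.5 by a log2 change of -1.18 ± 0.24 (SE; edgeR FDR 0.00122) and lower in P14 than in E15.5 by -0.90 ± 0.24 (FDR 0.00622). Those 2 comparisons share the E15.5 libraries. Both calls held in all alternatives run, including each library left out in turn.

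The size of the Rybp change depended on the table. The gene table held 27.2% to 48.3% of the reads that the transcript table gave to Rybp, against at least 94.4% for every other member except Kdm2b. In the transcript table the changes were -0.66 for P1 (FDR 0.00909) and -0.47 for P14 (FDR 0.0452). The Rybp values are uncertain to that extent.

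Yaf2 (ENSMUSG00000022634, mm9 chr15:93114709-93167239, minus strand) was at 63.5, 75.0 and 99.6 CPM in E15.5, 54.3, 51.9 and 58.9 in P1, and 77.6, 113 and 73.3 in P7. It was at 60.4, 76.9 and 70.5 CPM in P14 and at 87.6, 67.1 and 60.2 in MB. P1 was the lowest group, below every library of the others. No comparison passed in edgeR over all libraries, the nearest being P1 against E15.5, with a log2 change of -0.53 ± 0.21 (SE; FDR 0.0528). That one passed with DESeq2 (-0.53, FDR 0.0483) and without E15.5 replicate 1 (-0.67, FDR 0.0303). Per kb of exon, the Rybp to Yaf2 ratio was 0.212, 0.253 and 0.114 in E15.5 and between 0.0945 and 0.142 in the other 12 libraries. E15.5 replicates 1 and 2 were thus high and replicate 3 was not, and the ratio did not differ among the 4 ages beyond the spread (two-sided exact permutation p = 0.139, adjusted p = 0.145). Without E15.5 replicate 3 the unadjusted p was 0.00922 in the gene table. From transcript table counts, with all 12 libraries, the same exact test gave an unadjusted p of 0.318. From transcript table counts the ratio was 0.282 to 0.517 over all 15 libraries, so Yaf2 RNA was above Rybp RNA in both tables.

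Kdm2b (ENSMUSG00000029475, mm9 chr5:123320677-123439108, minus strand) varied little as a whole gene in the gene table. Its level was 97.5, 103 and 91.8 CPM in E15.5, 76.0, 69.2 and 76.9 in P1, and 91.9, 86.2 and 111 in P7. It was 93.9, 77.6 and 91.1 CPM in P14 and 96.9, 119.9 and 118.9 in MB. All P1 libraries were below all others. Lower expression in P1 than in E15.5 passed the threshold narrowly, with a log2 change of -0.39 ± 0.15 (SE; edgeR FDR 0.0431). The call was lost when any library other than E15.5 replicate 3 was left out (FDR 0.0670 to 0.141 over those 5) and in 4 further alternatives. The MB level was 1.28-fold that of P14 (log2 change 0.35, FDR 0.0617), which was not called in edgeR on the gene table. It was called in the transcript table (0.54, FDR 0.00491), in the start site table (0.38, FDR 0.0435), without MB replicate 1 (0.45, FDR 0.0200), with the counting set as a term (0.42, FDR 0.0331), inside 1 set (0.45, FDR 0.0215) and with DESeq2 (0.35, FDR 0.0429). The gene table held 62.9% to 65.3% of the reads given to the longest-spanning Kdm2b transcript in E15.5 and 78.6% to 81.3% in P14. In the transcript table Kdm2b was lower than in E15.5 both in P1 (log2 change -0.64, FDR 0.00194) and in P14 (-0.47, FDR 0.0114). It was also called there in the test among the 4 ages. The size of the Kdm2b age differences thus depended on the table.

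Within Kdm2b the balance of upstream and downstream reads differed between groups. The locus gives a long transcript, which encodes the JmjC demethylase domain, and a short transcript that starts within the gene and lacks that domain but keeps the CXXC domain that binds CpG-rich DNA. In the deposited transcript models the short transcript (ENSMUST00000031435) covered 3532 exon bases, nearly all of them shared with the long transcript ENSMUST00000046073. A fragment model over 6 upstream exons (ENSMUST00000145082, 1043 exon bases, mm9 chr5:123382584-123402515) shared 868 bases with that long transcript and 0 with the short one. The reads per base over these upstream exons were therefore set against those over the short transcript model, which counts reads from both transcripts.

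Upstream reads per base were 12.2%, 13.02% and 7.75% of the short model's in E15.5, 29.9%, 34.3% and 43.9% in P1, and 35.5%, 31.3% and 42.0% in P7. They were 47.6%, 41.0% and 45.9% in P14 and 19.2%, 17.6% and 16.1% in MB. E15.5 was thus below every other group and MB was below every postnatal library, with no overlap. The 4 ages differed (two-sided exact permutation test over 12 libraries, p = 0.00357), and p stayed between 0.00123 and 0.00656 when each library was left out. This measure was chosen after the data were seen, so its p is not that of a planned test. For MB against 1 age no p is given, because 3 libraries against 3 cannot go below 0.10.

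The counts behind the measure were 69 to 120 upstream reads per E15.5 library and 171 to 404 in the other 12, with at least 1795 reads over the short model. As a share of the Kdm2b gene count, the upstream reads were 3.35% to 5.61% in E15.5, 10.2% to 13.96% in P1, 12.1% to 13.2% in P7, 12.7% to 14.5% in P14 and 5.76% to 8.31% in MB (p = 0.00468 among ages, same exact test). The order of the groups with E15.5 and MB lowest was also present inside each counting set. Among 74 other genes with an upstream and a downstream model that share no base, the median log2 difference between P14 and E15.5 was 0.08 against 2.06 for Kdm2b, and 24.3% were higher without overlap. Between MB and P14 the median was 0.03 against -1.35 for Kdm2b, with 14.9% lower without overlap. Cell type markers also differed between these groups. The 7 vascular and mural markers summed to 27.3 to 55.3 CPM in E15.5 and 25.5 to 41.0 in MB, against 737 to 1058 in P1, 460 to 682 in P7 and 1211 to 1358 in P14. The 9 granule neuron markers summed to 1136 to 1695 CPM in E15.5 and 1189 to 1695 in MB, against 1379 to 3624 in P1, 3752 to 3915 in P7 and 4610 to 5324 in P14. For the granule neuron markers, P1 replicates 1 and 2, at 1425 and 1379 CPM, lay inside the E15.5 range. For the vascular and mural markers the same 2 libraries, at 737 and 1058 CPM, lay above it. Astroglial and oligodendrocyte markers were also lowest in E15.5 and lower in MB than in P14. The part of these cell types in the Kdm2b difference was not tested.

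**Figure D2:**
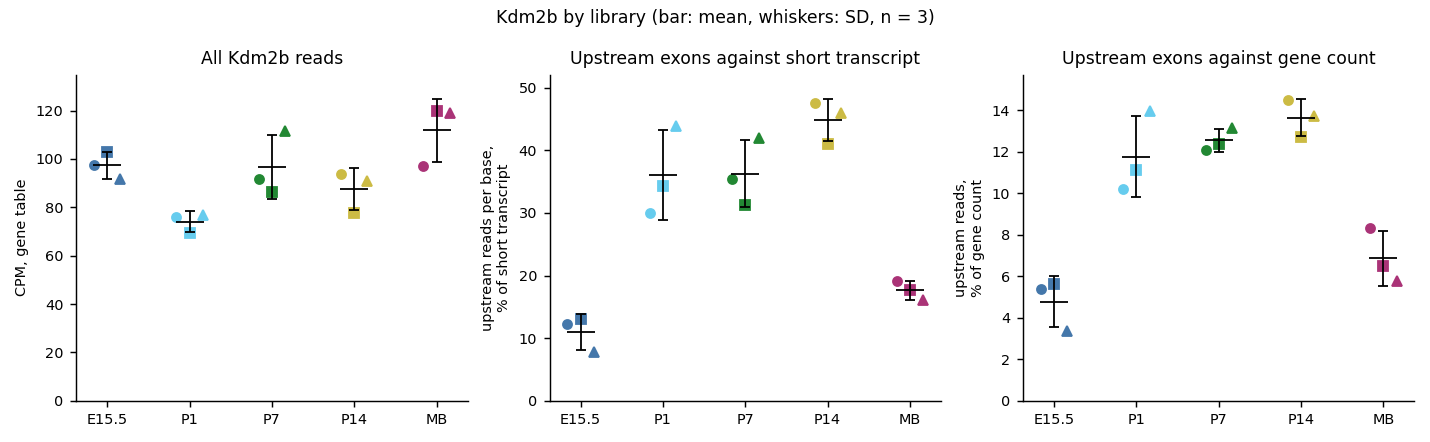
Kdm2b in each library (circle, square and triangle are replicates 1, 2 and 3; bar, mean; whiskers, SD, n = 3): gene level in CPM, upstream reads per base as a percentage of those over the short transcript, and upstream reads as a percentage of the gene count. Upstream reads per base are at 7.75% to 13.02% in E15.5, 16.1% to 19.2% in MB and 29.9% to 47.6% in the postnatal ages.

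Bcor (ENSMUSG00000040363, mm9 chrX:11613866-11657679, minus strand), the corepressor of the KDM2B form, was highest in the tumour. It was at 64.4, 61.6 and 35.9 CPM in E15.5, 50.1, 45.4 and 37.9 in P1, and 55.3, 49.1 and 55.5 in P7. It was at 42.3, 28.8 and 29.9 CPM in P14 and at 78.4, 80.6 and 66.4 in MB. Every MB library lay above every library of the 4 normal groups. Bcor was 2.23-fold higher in MB than in P14 (log2 change 1.16 ± 0.22, SE; edgeR FDR 5.19e-04), and the call held in all alternatives. In that comparison 50% of all genes were called and 22.9% were called higher. Against P7 the log2 change was 0.50 ± 0.22 (FDR 0.0969), which did not pass. Bcor was lower in P14 than in E15.5 (log2 change -0.68, FDR 0.0185), but E15.5 replicate 3 fell within the P14 range and the call was lost without E15.5 replicate 1 (-0.53, FDR 0.0847), E15.5 replicate 2 (-0.58, FDR 0.0636), P14 replicate 2 (-0.58, FDR 0.0800) or P14 replicate 3 (-0.60, FDR 0.0749). That call was also lost with the pair of groups fitted alone (-0.65, FDR 0.0691).

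Among the PCGF subunits, Pcgf3 and Pcgf5 moved in opposite directions after E15.5. Pcgf3 (ENSMUSG00000033623, mm9 chr5:108890251-108935995, plus strand) was at 182, 205 and 159 CPM in E15.5, 145, 114 and 124 in P1, and 134, 173 and 138 in P7. It was at 114, 106 and 111 CPM in P14 and at 134, 118 and 129 in MB. The E15.5 libraries lay above all P1, P14 and MB libraries. Pcgf3 was lower in P14 than in E15.5 (log2 change -0.72 ± 0.16, SE; edgeR FDR 0.00138), a call that held in all alternatives. It was also lower in P1 than in E15.5 (log2 change -0.51 ± 0.16, FDR 0.0144), but not without E15.5 replicate 2 (-0.42, FDR 0.0558), without P1 replicate 2 (-0.44, FDR 0.0712) or with the pair of groups fitted alone (-0.49, FDR 0.0541).

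Pcgf5 (ENSMUSG00000024805, mm9 chr19:36484238-36530682, plus strand) had the lowest per-kb level of the 9 genes in E15.5, P7 and P14. In P1 and MB its means of 5.14 and 9.03 CPM per kb were above those of Rybp in the gene table, 3.85 and 5.25. That order is uncertain, because the gene table held only 27.2% to 48.3% of the transcript table's Rybp reads. Pcgf5 was at 2.01, 2.17 and 2.49 CPM in E15.5 (46, 26 and 95 counts), 8.88, 9.23 and 6.97 in P1, and 6.14, 8.002 and 5.89 in P7. It was at 6.24, 5.61 and 6.15 CPM in P14 and at 22.1, 11.4 and 10.6 in MB. E15.5 was below and MB above every library of the 3 postnatal ages. The 7 microglia and macrophage markers summed to 4.76 to 21.9 CPM in E15.5, 68.6 to 113 in P1 and 40.5 to 123 in P7. They summed to 114 to 163 CPM in P14 and to 400, 169 and 140 in MB replicates 1, 2 and 3. The part of these cells in the Pcgf5 differences was not tested. Pcgf5 was 3.74-fold higher in P1 than in E15.5 (log2 change 1.90 ± 0.29, SE; edgeR FDR 1.22e-04) and 2.68-fold higher in P14 than in E15.5 (1.42 ± 0.29, FDR 9.25e-04). Both calls held in all alternatives that could test the gene. It was 2.19-fold higher in MB than in P7 (log2 change 1.13 ± 0.28, FDR 0.00495) and 2.45-fold higher than in P14 (1.29 ± 0.28, FDR 0.00132), comparisons that share the MB libraries. MB replicate 1 carried part of the size, and without it the change against P7 was 0.72 (FDR 0.0176) and that against P14 was 0.87 (FDR 0.00389). MB replicate 1 against P7, which share a counting set, gave 1.72.

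Pcgf6 (ENSMUSG00000025050, mm9 chr19:47108109-47125335, minus strand) was at 31.4, 26.3 and 31.2 CPM in E15.5, 44.9, 38.8 and 36.8 in P1, and 31.4, 28.5 and 30.1 in P7. It was at 30.2, 32.6 and 34.6 CPM in P14 and at 43.5, 44.1 and 50.9 in MB. P1 and MB were the high groups, above all libraries of E15.5, P7 and P14. Pcgf6 was 1.54-fold higher in MB than in P7 (log2 change 0.62 ± 0.15, SE; edgeR FDR 0.00511), where 34.5% of all genes were called and 13.7% were called higher, and this held in all alternatives. The change against P14 was 0.51 ± 0.15 (FDR 0.0119), and 0.46 without P14 replicate 1 (FDR 0.0551). Higher expression in P1 than in E15.5 (0.44 ± 0.15, FDR 0.0293) was lost without E15.5 replicate 2 (0.36, FDR 0.0971), E15.5 replicate 3 (0.43, FDR 0.0561), P1 replicate 1 (0.35, FDR 0.123) or P1 replicate 2 (0.46, FDR 0.0590). That call was also lost with no filter (0.43, FDR 0.0557), with the pair of groups fitted alone (0.46, FDR 0.0557) and with the counting set as a term (0.48, FDR 0.0632).

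The make-up of the PCGF pool was compared on the per-kb scale, with the canonical subunits Bmi1 and Pcgf2 as the other 2 of 5 measured genes. Pcgf3, Pcgf5 and Pcgf6 together made up 30.8%, 31.2% and 32.9% of the pool in E15.5, 40.9%, 39.4% and 35.5% in P1, and 29.3%, 25.5% and 30.1% in P7. They made up 31.7%, 32.1% and 31.6% in P14 and 23.3%, 26.8% and 30.2% in MB. P1 lay above all other libraries. The share differed among the 4 ages (two-sided exact permutation test, p = 5.84e-04, adjusted p = 0.00175 over 3 tests), with age means spanning 10.2 percentage points. The highest mean was that of P1 and the lowest that of P7, which lie in different counting sets. No alternative for this share held the counting set fixed. P1 and P14, with P1 higher, lie in 1 set. Canonical Pcgf2 fell from 55.5 ± 8.63 in E15.5 to 33.3 ± 1.62 CPM per kb in P1 (SD, n = 3; log2 change -0.74, edgeR FDR 0.00202). Bmi1 was at 82.1 ± 31.8 CPM per kb in MB and 35.5 ± 0.617 in P14 (log2 change 1.21, FDR 0.00238).

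**Figure D3:**
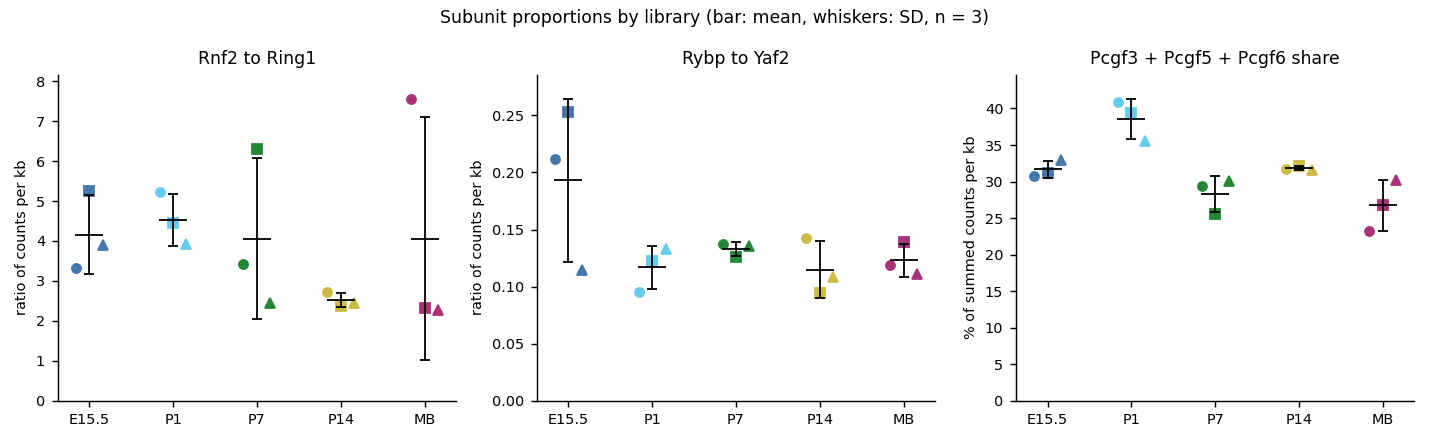
Subunit proportions in each library on the per-kb scale (circle, square and triangle are replicates 1, 2 and 3; bar, mean; whiskers, SD, n = 3): Rnf2 to Ring1, Rybp to Yaf2, and the percentage of the 5 measured Pcgf genes taken by Pcgf3, Pcgf5 and Pcgf6. The percentage is at 35.5% to 40.9% in P1 and at 23.3% to 32.9% in the other groups.

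Over the whole set, 6 of the 9 genes were called between E15.5 and P1, with Pcgf5 and Pcgf6 higher and Ring1, Rybp, Kdm2b and Pcgf3 lower. Against the 46.3% of all genes called there (25.4% higher, 20.9% lower), the members' median log2 change was -0.51 and that of all genes 0.03. The count was 3 without E15.5 replicate 2 and 3 without P1 replicate 2. Between E15.5 and P14, 5 of 9 were called, with Pcgf5 higher and Rnf2, Rybp, Pcgf3 and Bcor lower. The median was -0.25 against -0.03 for all genes, and 50.9% of all genes were called. In the test for any difference among the 4 ages, 5 of 9 were called (Rnf2, Ring1, Rybp, Pcgf3 and Pcgf5), beside 55.7% of all genes. Rybp, Pcgf3 and Pcgf5 were called in every alternative that could test them. Rnf2 was lost in 9 of the 12 fits that left out a library, all but those without a P7 library, and Ring1 in 11, all but that without E15.5 replicate 2. Both were also lost with the replicate block and with the counting set as a term.

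After birth none of the 9 was called in the main edgeR fit, while alternative edgeR fits called up to 2 of them in a comparison. From P1 to P7, 7 of 9 changes were positive (median log2 change 0.38, all genes -0.01), 5 had a raw p under 0.05, and 3.15% of all genes were called (1.4% higher, 1.74% lower). DESeq2 called 2, Rybp and Pcgf6. From P7 to P14, 8 of 9 were negative (median -0.34, all genes -0.005), 4 had a raw p under 0.05, and 10.3% of all genes were called (5.81% higher, 4.51% lower), while DESeq2 called 0. Both steps cross the counting sets and share the P7 libraries. Between P1 and P14, which lie in 1 set, the median was -0.21, 1 gene (Ring1) had a raw p under 0.05, 8.94% of all genes were called (3.63% higher, 5.31% lower) and DESeq2 again called 0. With those groups fitted alone, edgeR called Ring1 (log2 change 0.48, FDR 0.0311) and Rnf2 (-0.36, FDR 0.0422). Inside 1 counting set it called Ring1 (0.49, FDR 0.0320).

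In the tumour, 2 of 9 were called against P7 (Pcgf5 and Pcgf6, both higher; median log2 change 0.08, all genes 0.02) and 3 of 9 against P14 (Pcgf5, Pcgf6 and Bcor, all higher; median 0.35, all genes 0.01). Of all genes, 34.5% were called against P7 (13.7% higher, 20.7% lower) and 50% against P14 (22.9% higher, 27.2% lower). Neither count of members is above the share of all genes called in either direction. All called members were higher, and their counts were not tested against the shares called higher, 13.7% and 22.9%. All 9 changes against P14 were positive, from 0.05 for Yaf2 to 1.29 for Pcgf5. Without MB replicate 1 the count against P14 was 5, with Ring1 and Kdm2b added. A summed level of 12 cell cycle genes moved in the same comparison, at 4970 to 6759 CPM in MB, 3463 to 4908 in P7 and 1551 to 1852 in P14, and its part was not tested.

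**Figure D4:**
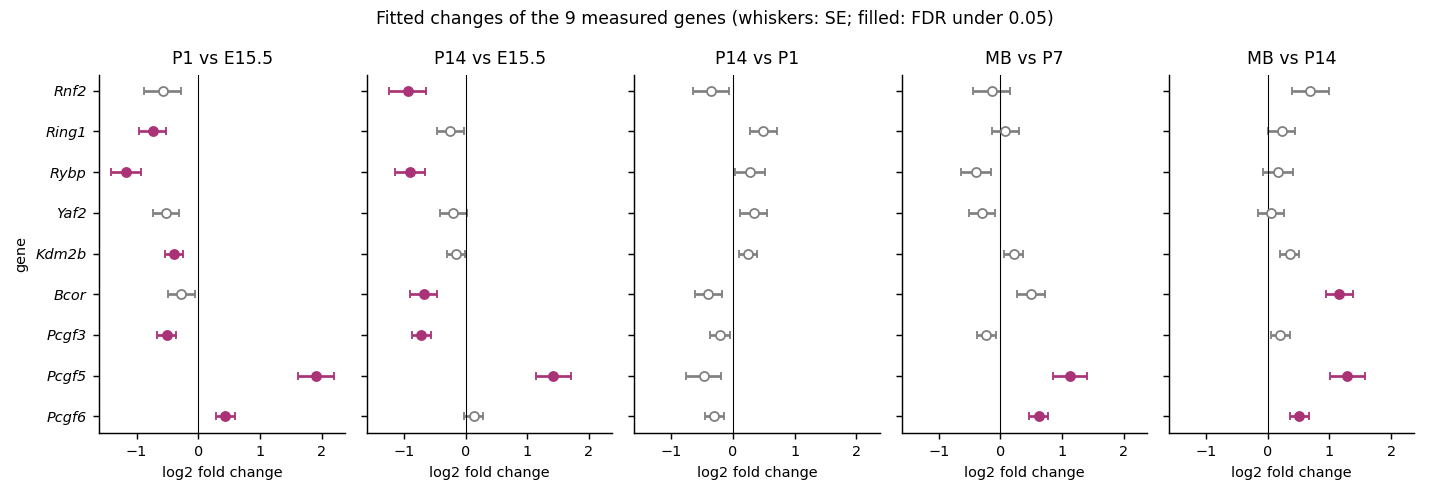
Fitted log2 fold changes (x axis) of the 9 genes in 5 comparisons, with whiskers for the SE and filled points for an FDR under 0.05 in edgeR. Pcgf5 is the only gene called in 4 of the 5 comparisons, from 1.13 to 1.90, and no gene is called between P1 and P14.

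The levels across the 5 groups were ordered by group mean, and neighbours were compared for overlap of libraries. The share of all tested genes with such gaps was not counted, here or for the gene levels above. The gaps are therefore given as descriptions only. Pcgf5 ran from MB through P1, P7 and P14 to E15.5, with a gap between MB and P1 and between P14 and E15.5, and overlap among the 3 postnatal ages. Bcor had a gap between MB and the next group, E15.5, and overlap between all lower neighbours. For Pcgf6 the gap lay between MB with P1 and the remaining 3 groups. Ring1, Yaf2 and Kdm2b each had P1 apart at the bottom, and Ring1 also had a gap between P7 and P14. Rnf2 and Pcgf3 each had only P14 apart at the bottom, and for Rybp all neighbours overlapped.

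Genes with the most similar profile were found by the Pearson correlation of log2 CPM over the 15 libraries among 11575 genes whose mean reached 5 CPM. The libraries share depth, age and counting set, so these values are descriptions. For Rnf2 they were Arpp19 (0.963), Snx4 (0.961) and Stam2 (0.956). For Ring1 they were Gna11 (0.942), Tmem259 (0.940) and Asphd2 (0.939). For Kdm2b they were Cdr2l (0.936), Mvb12b (0.920) and Zfp777 (0.915). For Pcgf5 they were Nfe2l2 (0.977), Nfxl1 (0.972) and Nsmaf (0.970).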

How the data were processed

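Reads were trimmed, aligned to mm9, assembled and counted with Trimmomatic, TopHat, StringTie and HTSeq, as named without versions in the submitters' processing notes. The strand setting is not given in the sources used here. RNA came from a Trizol lysate of Percoll-purified cells and poly(A) libraries were made with a TruSeq v2 kit, per the labels' protocols. The authors deposited raw read counts per gene, per start site model and per transcript, the last counting a read once for each transcript it covers. HTSeq's summary lines name no gene and stayed out of library sizes; 39.5% to 55.4% of records were in genes.

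Gene counts were filtered with filterByExpr (minimum count 10, minimum total 15), scaled with TMM and fitted with 1 mean per group over all 15 libraries (10 residual degrees of freedom) in edgeR 4.0.16 (R 4.3.3). The quasi-likelihood F-test was adjusted by Benjamini-Hochberg over 15259 genes, with calls at an FDR under 0.05. DESeq2 1.42.0 was an alternative. Per-kb levels used the exon length of the transcript model with the highest mean count. Ratios were tested by exact permutation of the 12 normal libraries; the Pcgf share covers the 5 Pcgf genes matched, although 6 were intended. The fits were tested on simulated data. No 2 libraries were identical. Upstream background genes needed at least 500 reads and 500 exon bases per model.

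All members are named. Of the partner list, the 2 called genes with the largest change in each direction are named in P1 against E15.5, P14 against P1 and MB against P7, and the 3 most similar genes are named for Rnf2, Ring1, Kdm2b and Pcgf5. Members and lists were chosen with earlier results of these data known.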

Additional observations from a re-analysis of the deposited data

How the results depend on the processing

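Other choices for the test (library scaling by DESeq2 size factors, no filter, the start site or transcript table, the compared groups alone, the counting set as a term or held fixed, DESeq2, and each library left out) reversed no called change of a named gene. Of the named genes' values under alternatives, 979 kept their side of the threshold, 51 lost it and 24 gained it. The count of members called moved by more than 1.5 times as follows. From P1 to P7 it was 2 with DESeq2. From P7 to P14 it was 2 with those groups alone (Rybp, Bcor). From P1 to P14 it was 2 with those groups alone (Rnf2, Ring1) and 1 inside 1 counting set. For MB against P7 it was 1 in the start site table, where 7 of the 9 genes could be tested. For MB against P14 it was 5 inside 1 counting set. Among the 4 ages it was 3 with the counting set as a term and 9 with DESeq2. The cause of these moves was not tested, except that Pcgf5 has no start site model. With each library left out, the count was 3 to 6 for P1 against E15.5, 0 to 1 for P7 against P1 and for P14 against P7, 0 for P14 against P1, 4 to 5 for P14 against E15.5, 2 for MB against P7, 2 to 5 for MB against P14 and 3 to 5 among the ages (3 without P1 replicate 1, 2 or 3, or P14 replicate 2 or 3). The range of age means was then 0.73 to 0.94 (log2) for Rnf2 to Ring1, 0.46 to 1.03 for Rybp to Yaf2, 8.84 to 11.8 points for the Pcgf share and 32.2 to 35.8 points for Kdm2b. Few counts limit the precision of Pcgf5 in E15.5 and of the upstream Kdm2b reads.

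Same-numbered libraries were not treated as pairs in the main fit. Of 21 pairs, 7 had correlated deviations above 0.1 (range -0.31 to 0.33), and no comparison had all 3. The comparisons reuse the same libraries, so this check cannot decide whether same-numbered libraries were paired. With the replicate block, P1 against E15.5 gave 5 called members and P14 against P7 gave 1 (Bcor). In the exact permutation test the block gave p = 0.00694 for both the Pcgf share and the Kdm2b measure.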

Other observations

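Partner genes of PRC1 were read from a list of 40 genes, 39 of which were tested. Between E15.5 and P1, 1 of 17 tested partners of variant PRC1 was called higher and 5 lower, 0 and 4 of 11 canonical subunits, and 2 and 3 of 11 genes for H2A deubiquitination and reading of the mark. Of all genes tested, 46.3% were called there (25.4% higher, 20.9% lower). Mysm1, an H2A deubiquitinase, rose from 36.2 ± 8.25 to 77.3 ± 1.70 CPM (SD, n = 3; edgeR log2 change 1.10, FDR 0.00396), and Asxl2, a partner of the deubiquitinase BAP1, from 50.1 ± 17.4 to 103 ± 6.34 (1.05, FDR 0.00335). Auts2, a subunit of the PCGF3 and PCGF5 forms, fell from 379 ± 143 to 173 ± 17.3 CPM (log2 change -1.13, FDR 0.0129), but not without E15.5 replicate 2 (-0.89, FDR 0.0568). Csnk2b, the regulatory subunit of casein kinase 2 in the same forms, fell from 229 ± 79.7 to 113 ± 9.87 CPM (-1.02, FDR 0.00175). Inside the counting set of P1 the Asxl2 change was 0.64 (FDR 0.119) and the Csnk2b change -0.61 (FDR 0.116).

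Between P1 and P14, 2 of the 39 tested partners were called, beside 8.94% of all genes. E2f6 fell from 41.6 ± 6.65 to 27.1 ± 0.990 CPM (edgeR log2 change -0.62, FDR 0.0449) and its dimer partner Tfdp1 from 113 ± 17.6 to 75.0 ± 5.43 (-0.59, FDR 0.0464). Both calls were lost when any library other than P1 replicate 3 was left out (FDR 0.108 to 0.207 for E2f6 and 0.114 to 0.239 for Tfdp1). They were also lost with no filter and with the replicate block. In MB against P7, 3 variant partners were called higher and 1 lower, 2 and 1 canonical subunits, and 1 and 0 of the third list, beside 34.5% of all genes (13.7% higher, 20.7% lower). E2f6 was at 64.5 ± 10.7 CPM in MB and 32.9 ± 3.78 in P7 (log2 change 0.97, FDR 6.10e-04), beside the higher Pcgf6. Auts2 was at 60.0 ± 22.8 CPM in MB and 226 ± 76.7 in P7 (-1.91, FDR 5.10e-04), beside the higher Pcgf5. Aebp2, a PRC2 accessory subunit that reads the H2A mark, was higher (0.79, FDR 0.0157), but not without P7 replicate 3 (0.70, FDR 0.0630) or MB replicate 1 (0.55, FDR 0.0672). Scmh1, a canonical PRC1 subunit, was lower (-0.57, FDR 0.0293), but not without P7 replicate 3 (-0.42, FDR 0.130), MB replicate 1 (-0.43, FDR 0.0898) or MB replicate 2 (-0.60, FDR 0.0563). The Scmh1 call was also lost with the pair of groups fitted alone. Against P14, 8 of the 17 variant partners were called higher in MB and 1 lower, with a median log2 change of 0.41. Of the 11 canonical subunits 4 were called higher and 0 lower, and of the 11 genes of the third list 3 and 0. Of all genes, 50% were called there (22.9% higher, 27.2% lower). The counts were not tested against these shares.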
